A study of Mus musculus with 6 samples.

Results

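Transcripts of 10 genes that mark macrophages were followed in the intestine of newborn mice: Csf1r, Cx3cr1, Mrc1, Cd68, Adgre1, C1qa, C1qb, C1qc, Fcer1g and Tyrobp. The genes were chosen by name, out of 54532 gene identifiers in the deposited tables, and each name had 1 row. The RNA was from intestine tissue of newborn mice of the inbred strain C57BL/6. One group of 3 libraries is labelled NECA, given for 5 days, and the other group of 3 is labelled DMSO. NECA, or N-ethylcarboxamidoadenosine, activates several subtypes of adenosine receptor. DMSO is a common solvent for such compounds. The labels name no mutant allele in either group and give neither the bowel segment, the dose, the route nor the exact age. Whether each library is a separate animal is not given either, so p-values measure the spread between these libraries, which may be partly technical.

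Macrophages of the gut wall take up bacteria and dying cells and are kept in number by the growth factor receptor CSF1R, which binds CSF1 and IL-34. In the intestine many carry the fractalkine receptor CX3CR1, and the mouse surface protein F4/80, encoded by Adgre1, is a classical macrophage marker. CD68 sits in their endosomes and lysosomes, and the mannose receptor encoded by Mrc1 binds sugars of microbes and of glycoproteins. C1q, the recognition molecule of the classical complement pathway, is assembled from the A, B and C chains and is made largely by macrophages and related cells. Fcer1g and Tyrobp encode small adaptor proteins with an activation motif (ITAM) that Fc receptors and TREM receptors need for signalling, in macrophages and also in mast cells, neutrophils and natural killer cells.

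The libraries held 15531996 to 18065078 counts. NECA replicate 2 stood apart, its median correlation across genes to the remaining libraries being 0.935, against 0.961 to 0.980 for the others. It had 190.7 CPM (counts scaled to a common library size with TMM factors) summed over 7 jejunal genes, against 4774 to 5234 in the other libraries. It had 2881 CPM over 7 ileal genes, against 251.7 to 698.8. DMSO replicate 2 and NECA replicate 1 were male by their Xist and Y-linked counts and the other 4 were female. Mitochondrial transcripts took 4.49%, 8.39% and 3.61% of the counts in DMSO replicates 1, 2 and 3 and 3.63%, 1.31% and 2.80% in the NECA replicates, highest in DMSO replicate 2 and lowest in NECA replicate 2. The plot of fold changes shows each marker with and without NECA replicate 2.

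All 10 markers were detected in every library, with 80 to 7044 counts, and all 10 passed the filter on low counts. By FPKM, the deposited value per transcript length, they are listed from the highest mean to the lowest. Csf1r was highest, with 59.2, 67.7 and 77.6 FPKM in the DMSO libraries and 93.9, 22.2 and 76.3 FPKM in the NECA libraries. The C1q chains followed, with C1qa at 58.0 ± 12.0, C1qb at 44.4 ± 12.4 and C1qc at 25.6 ± 5.85 FPKM (SD, n = 6 libraries). The ITAM adaptors came next, Tyrobp at 18.5 ± 5.51 and Fcer1g at 16.3 ± 3.24 FPKM. The surface and lysosomal markers were lowest, with Adgre1 at 5.58 ± 2.02, Cd68 at 5.38 ± 1.53, Cx3cr1 at 3.40 ± 1.13 and Mrc1 at 3.31 ± 0.895 FPKM. Some neighbours in this order did not differ beyond their spread. Csf1r lay above C1qa in 4 of 6 libraries, Tyrobp above Fcer1g in 5, Adgre1 above Cd68 in 3 and Cx3cr1 above Mrc1 in 4. Each of the other steps held in all 6 libraries, the largest being that from Fcer1g to Adgre1, a log2 ratio of FPKM of 1.60 ± 0.32 (SD, n = 6).

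**Figure D1:**
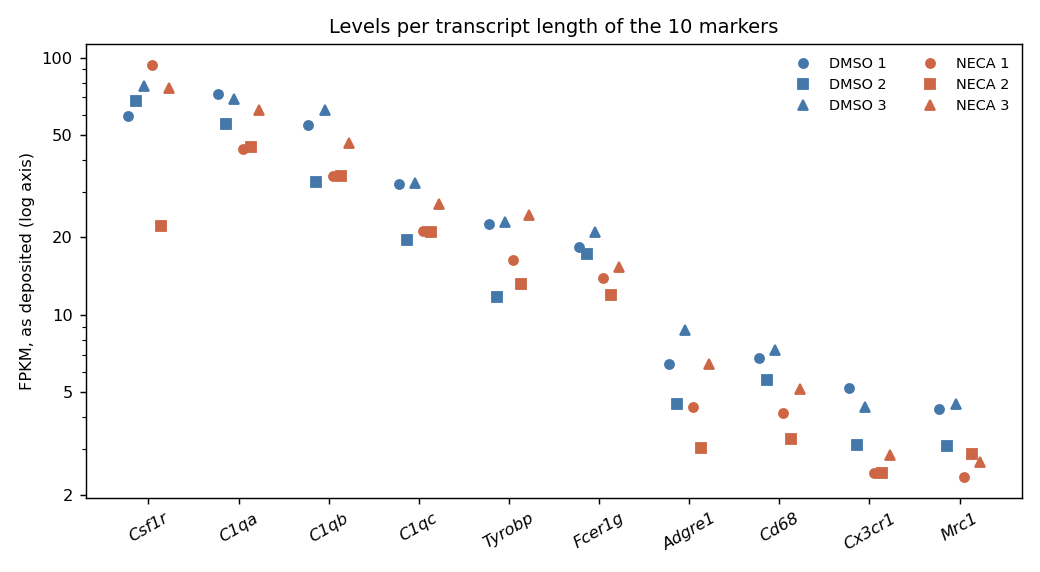
Deposited FPKM (y axis, log scale) of the 10 markers (x axis, ordered by mean) in each library, with DMSO in blue, NECA in orange and circle, square and triangle for replicates 1, 2 and 3. Csf1r spans 22.2 to 93.9 FPKM, a wider range than any of the other 9 markers.

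The genes for the C1q chains lie next to each other on chromosome 4 (GRCm38, minus strand), with C1qb at 136880129 to 136886187, C1qc at 136889804 to 136893065 and C1qa at 136895917 to 136898803. RefSeq promoter sequences of 6 of the 10 genes were at hand. In 4 of these (C1qc, Mrc1, Cx3cr1 and Fcer1g) the 250 bases before the RefSeq start hold 151, 22, 250 and 16 bases that GENCODE M21 places in exons of the same gene, because its starts lie farther upstream, and these windows are not printed. The windows of C1qb (chr4:136886201-136886450) and Cd68 (chr11:69666171-69666420), both on the minus strand of GRCm38.p6, hold none and are shown as examples of a complement gene and a lysosomal marker. Capitals mark GAGGAA, the purine-rich core bound by the myeloid transcription factor PU.1.
C1qb: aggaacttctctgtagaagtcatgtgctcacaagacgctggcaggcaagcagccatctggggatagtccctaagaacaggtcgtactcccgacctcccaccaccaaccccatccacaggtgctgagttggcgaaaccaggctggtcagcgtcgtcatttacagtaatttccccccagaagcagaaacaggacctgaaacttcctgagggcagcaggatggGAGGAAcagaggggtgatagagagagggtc
Cd68: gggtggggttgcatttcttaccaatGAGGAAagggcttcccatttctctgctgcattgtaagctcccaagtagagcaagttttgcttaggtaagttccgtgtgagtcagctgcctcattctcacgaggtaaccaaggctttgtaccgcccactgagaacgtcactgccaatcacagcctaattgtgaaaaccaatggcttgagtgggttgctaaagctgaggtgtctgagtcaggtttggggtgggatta

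The letters GAGGAA or, for the other strand, TTCCTC occurred in 4 of the 6 promoter windows (C1qb, C1qc, Mrc1 and Cd68). They occurred in 23.3% of all 32851 promoters of the same length, in 15 of 32 promoters of other macrophage genes and in 5 of 9 promoters of epithelial markers. The longer GAGGAAGT, which contains it, was found in C1qc alone of the 6 and in 2.44% of all promoters. These are matches of letters and not measured binding. Spi1, which encodes PU.1, was at 16.6, 13.2 and 17.1 CPM with DMSO and 8.72, 12.3 and 14.3 CPM with NECA, a log2 fold change of -0.41 (SE 0.23).

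Between the groups, the log2 fold changes nearest 0 were those of Tyrobp (-0.10) and Csf1r (-0.11). Of the 9 markers other than Csf1r, 8 were highest in DMSO replicate 1 or 3, and Tyrobp was highest in NECA replicate 3. Csf1r was set apart from the 9 after its values were seen. With edgeR's quasi-likelihood test none of the 10 passed after Benjamini-Hochberg adjustment over 15847 genes (adjusted p = 0.738 for 8 of them and 0.931 and 0.952 for Tyrobp and Csf1r). DESeq2 also called 0 of the 10. The edgeR test called 0 genes in all, 0% of those tested, and 5.48% had an unadjusted p under 0.05. DESeq2 called 11 genes, or 0.0694%, and gave 4 markers and 6.34% of genes an unadjusted p under 0.05. In edgeR 4 markers (Cx3cr1, Mrc1, Cd68 and Fcer1g) had an unadjusted p under 0.05, each lower in NECA, as did 3.03% of all genes. No marker was higher at that p, where 2.45% of all genes were. The same 4 had groups that did not overlap, lower in NECA, as did 7.16% of all genes, or 13.7% in either direction (6.49% higher in NECA). The median log2 fold change of the markers was -0.43, against -0.01 over all genes, and 10 of 10 lay below 0, as did 51% of all genes. In bulk tissue, fewer macrophages and less RNA per macrophage cannot be told apart.

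**Figure D2:**
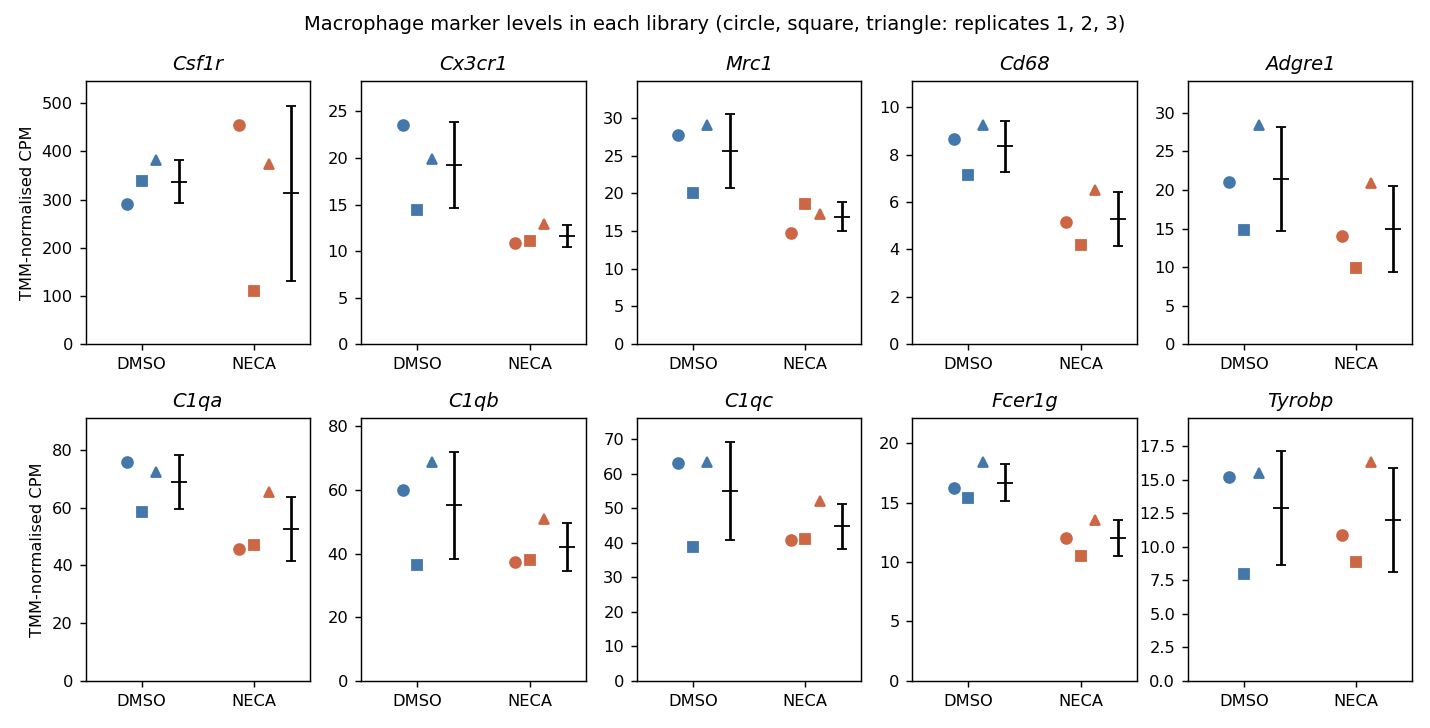
TMM-normalised CPM (y axis, from 0) of each marker in the 3 DMSO (blue) and 3 NECA (orange) libraries, with circle, square and triangle for replicates 1, 2 and 3 and the black bar for the mean ± SD. In Cx3cr1, Mrc1, Cd68 and Fcer1g all NECA libraries lie below all DMSO libraries, and in the other 6 markers the groups overlap.

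Among the receptors, Cx3cr1 (ENSMUSG00000052336, chromosome 9, 119901616 to 120069879), the receptor for fractalkine, was at 23.5, 14.4 and 19.9 CPM with DMSO. It was at 10.9, 11.1 and 12.9 CPM with NECA. Each NECA library was lower than each DMSO library, and DMSO replicate 2 lay closest to NECA. The log2 fold change was -0.73 (SE 0.22), the lowest of the 10, with an unadjusted p of 0.0103 in edgeR's quasi-likelihood test. The annotated span of Cx3cr1 overlaps 9 other genes, some on the opposite strand, and the strand setting of the counting is not given in the sources used here.

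Mrc1 (ENSMUSG00000026712, chromosome 2, 14229392 to 14332057), the mannose receptor, was at 27.7, 20.1 and 29.1 CPM in DMSO and 14.8, 18.6 and 17.2 CPM in NECA. The groups did not overlap, although DMSO replicate 2 and NECA replicate 2 were close. The log2 fold change was -0.60 (SE 0.19). Adgre1 (ENSMUSG00000004730, chromosome 17, 57358691 to 57483527), which encodes F4/80, was at 20.98, 14.9 and 28.4 CPM in DMSO and 14.1, 9.92 and 20.96 CPM in NECA. The groups overlapped, with NECA replicate 3 above DMSO replicate 2, and the log2 fold change was -0.52 (SE 0.33). It moved to -0.26 when DMSO replicate 3 was left out, to -0.29 (SE 0.30) when NECA replicate 2 was, and to -0.84 when NECA replicate 3 was. Cd68 (ENSMUSG00000018774, chromosome 11, 69664213 to 69666153), the lysosomal glycoprotein, was at 8.65, 7.16 and 9.25 CPM in DMSO and 5.17, 4.19 and 6.49 CPM in NECA. Its groups did not overlap, over 80 to 155 counts per library, and the log2 fold change was -0.66 (SE 0.24).

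The C1q chains were measured more deeply, over 545 to 1360 counts per library. C1qa (ENSMUSG00000036887) was at 75.9, 58.4 and 72.3 CPM in DMSO and 45.5, 47.2 and 65.3 CPM in NECA. NECA replicate 3 lay above DMSO replicate 2, so that the groups overlapped in that pair, and the log2 fold change was -0.39 (SE 0.19). C1qb (ENSMUSG00000036905) was at 60.0, 36.5 and 69.0 CPM in DMSO and 37.4, 38.1 and 51.0 CPM in NECA, a log2 fold change of -0.39 (SE 0.25). C1qc (ENSMUSG00000036896) was at 63.1, 38.6 and 63.5 CPM in DMSO and 40.8, 41.1 and 52.1 CPM in NECA, a log2 fold change of -0.30 (SE 0.22). With DMSO replicate 2 left out C1qb moved to -0.61 and C1qc to -0.50, and with DMSO replicate 3 left out they moved to -0.19 and -0.18. In C1qb and C1qc the lowest of all 6 libraries was DMSO replicate 2. In all 3 chains DMSO replicates 1 and 3 lay above every NECA library.

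The proportion of C1qb to C1qc varied least among the chains, and that of C1qa to C1qb most. The FPKM ratio of C1qb to C1qc ran from 1.63 to 1.93 over the 6 libraries, that of C1qa to C1qc from 2.07 to 2.81 and that of C1qa to C1qb from 1.10 to 1.67. The order C1qa, C1qb, C1qc held in every library. The log2 ratios differed between the groups by -0.05 (C1qa to C1qb), -0.12 (C1qa to C1qc) and -0.08 (C1qb to C1qc). Over the 3 ratios the exact two-sided permutation test gave p = 0.8, 0.6 and 0.4, each with an adjusted p of 0.8. With 3 libraries against 3 that test cannot go below 0.10. The size of the FPKM ratios rests on the transcript lengths used: the annotated exons of C1qa and C1qb span 1040 and 1088 bases and those of C1qc 1931 bases, and the counts of C1qb and C1qc were close, at 1076 and 1130 in DMSO replicate 1.

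Of the ITAM adaptors, the groups were separate in Fcer1g and mixed in Tyrobp. Fcer1g (ENSMUSG00000058715, chromosome 1, 171229572 to 171234365), the common Fc receptor gamma chain, was at 16.2, 15.4 and 18.4 CPM in DMSO and 12.0, 10.5 and 13.5 CPM in NECA. The groups did not overlap, and the log2 fold change was -0.47 (SE 0.17). Tyrobp (ENSMUSG00000030579, chromosome 7, 30413760 to 30417585), which encodes DAP12, was at 15.2, 7.96 and 15.5 CPM in DMSO and 10.9, 8.87 and 16.4 CPM in NECA. It was lowest in DMSO replicate 2 and highest in NECA replicate 3, so the groups overlapped. Its log2 fold change was -0.10 (SE 0.33). It turned to 0.08 without NECA replicate 2, 0.03 without DMSO replicate 1 and 0.06 without DMSO replicate 3. Leaving out DMSO replicate 2 gave -0.35, and leaving out NECA replicate 3 gave -0.39. The difference between the fold changes of the adaptors was not tested.

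**Figure D3:**
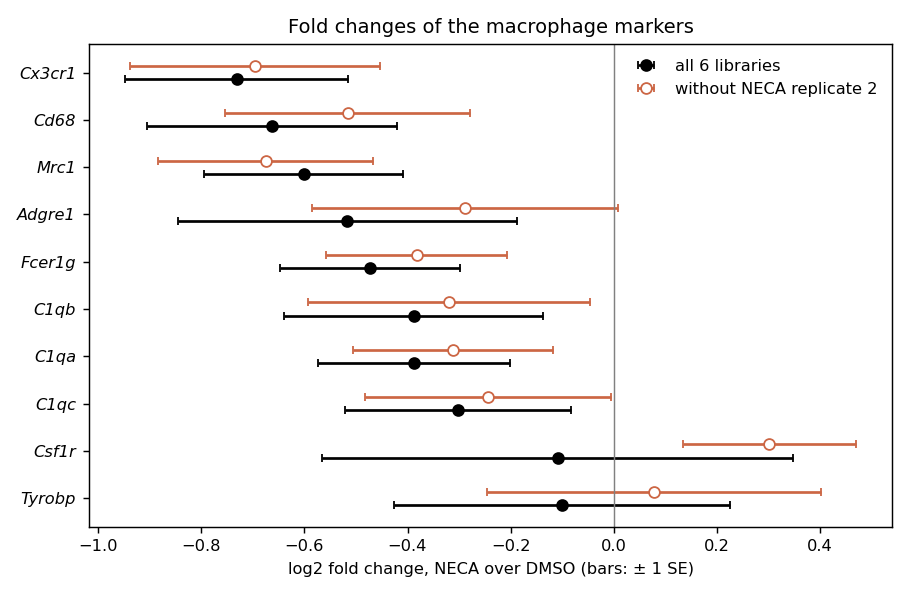
Log2 fold change of NECA over DMSO (x axis, bars of 1 SE) for each marker (y axis), with all 6 libraries in black and without NECA replicate 2 in orange. The points of Csf1r and Tyrobp cross 0 when that library is left out, and the other 8 stay below 0.

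Csf1r (ENSMUSG00000024621, chromosome 18, 61100598 to 61132149) departed from the other markers. It was at 291.9, 337.7 and 382.2 CPM with DMSO and 455.2, 109.6 and 373.8 CPM with NECA. NECA replicate 1 was the highest of all 6 libraries and NECA replicate 2 the lowest, at 0.293 of the median of the other 5. In NECA replicate 1 Csf1r was at 1.35 times the median of the other libraries, whereas the other 9 markers were at 0.672 to 0.782 times theirs. The log2 fold change was -0.11 (SE 0.46) with all libraries and 0.30 (SE 0.17) without NECA replicate 2. With NECA replicate 1 left out it was -0.48, and with DMSO replicate 3 left out -0.006. It was also above 0, at 0.35 (SE 0.38), with a score of bowel position as a covariate, and no other marker except Tyrobp changed sign in any alternative. The counts of Cx3cr1 per count of Csf1r ran from 0.0239 in NECA replicate 1 to 0.101 in NECA replicate 2. The log2 ratios of the 9 markers to Csf1r differed between the groups by -0.37 (Cx3cr1) to 0.26 (Tyrobp). The exact permutation test (adjusted p = 1 over the 9) cannot go below 0.10 here, so none could have passed 0.05.

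**Figure D4:**
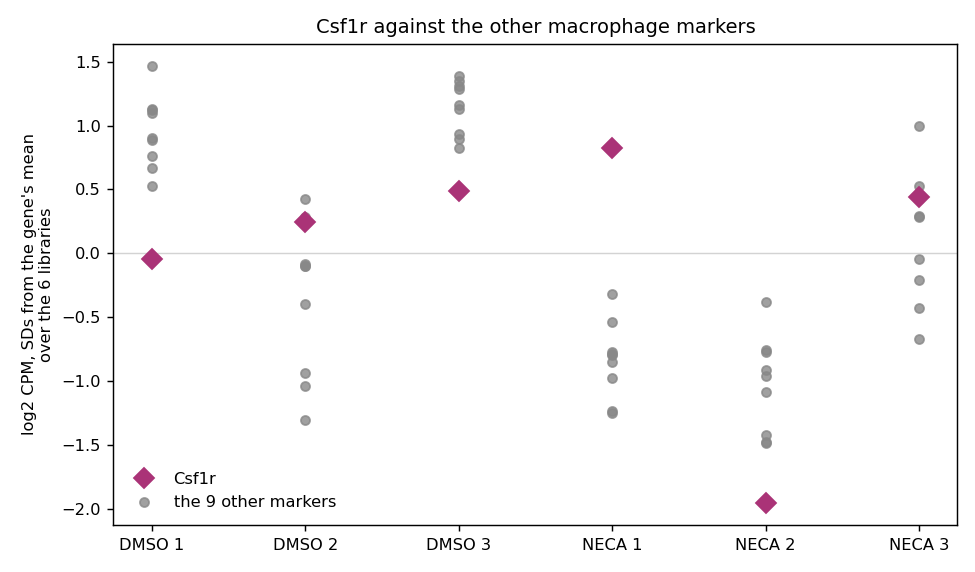
Log2 CPM of each marker in each library (x axis), in SDs from that gene's mean over the 6 libraries (y axis), with Csf1r as diamonds and the other 9 markers as grey points. In NECA replicate 1 Csf1r lies above its mean, at 0.827, while the other 9 lie between -1.25 and -0.317.

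As a description over the 6 libraries, the 36 pairs among the other 9 markers had Pearson correlations of log2 CPM from 0.42 to 0.99, with a median of 0.83. The 9 pairs with Csf1r ran from -0.002 to 0.64, with a median of 0.33. These values share libraries and scaling, and carry no test. The genes most like the mean of the 10 markers, among tested genes with a mean of at least 5 CPM and no predicted name, were Lair1 (0.99), Cybb (0.98), Orc4 (0.98), Ctbs (0.98), Trim13 (0.98), Art3 (0.97), Slc11a1 (0.97), Cp (0.97), Clps (0.96) and St8sia4 (0.96). These are the highest of 11281 genes searched over the 6 libraries, a choice that by itself favours values near 1, and only some are described here. Lair1 encodes an inhibitory receptor of leukocytes, Cybb a subunit of the phagocyte oxidase and Slc11a1 a metal transporter of the macrophage phagosome. Slc11a1 is also on the list of other macrophage genes, and the rest are on none of the lists used here. Cybb was at 27.7, 15.99 and 27.1 CPM in DMSO and 16.0, 13.3 and 19.5 CPM in NECA, with the highest values in DMSO replicates 1 and 3, as in the C1q chains.

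Measured against Csf1r alone, a comparison added after its values were seen, the genes most alike were Ap1ar, Sema4b, Rabep1, Nek6, Slc39a8, Lrrc4, Cebpg, Tmem139, Flvcr1 and Slc30a6, with correlations of 0.99 to 0.997. These are the highest of 11281 genes searched over 6 libraries, a choice that by itself favours values near 1. Csf1r was at -1.96 SDs from its mean in NECA replicate 2, so the correlations lean on that library. They carry no test. Slc39a8, a metal ion transporter, was at 177.4, 178.3 and 215.9 CPM in DMSO and 228.2, 64.95 and 198.8 CPM in NECA. Flvcr1, a transporter of the cell membrane, was at 107.7, 131.96 and 126.1 CPM in DMSO and 161.9, 21.9 and 133.7 CPM in NECA. Both had their highest value in NECA replicate 1 and their lowest in NECA replicate 2, as Csf1r did. Hmgxb3, which overlaps the span of Csf1r on the opposite strand, was at 41.97 CPM in NECA replicate 2 and 26.7 to 49.9 CPM in the others. It was highest in NECA replicate 1, as Csf1r was, and lowest in DMSO replicate 2, and without strand information its share in the Csf1r counts was not tested. The 7 jejunal genes were each lowest in NECA replicate 2, and their part in the Csf1r values was not tested beyond the fit with the position score.

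A list of 35 other macrophage genes had 32 tested members, and 0 passed the test. Of the 32, 28 were lower in NECA, as were 51% of all tested genes, and 4 were higher. The median log2 fold change of the 32 was -0.37, and -0.28 without NECA replicate 2. The 3 with the smallest p were Sirpa, the receptor for CD47, at 35.7 ± 1.59 CPM in DMSO and 26.9 ± 0.962 in NECA (SD, n = 3; log2 fold change -0.41, SE 0.13), the integrin Itgam (-0.91, SE 0.25) and Cbr2 (-1.78, SE 0.47). Cbr2 was measured on few reads, with 18 to 35 counts per DMSO library and 3 to 12 per NECA library. In 5 of the 32 every NECA library lay below every DMSO library, as in 7.16% of all tested genes. In 10 of the 32, NECA replicate 2 lay under 0.6 of the median of the other libraries, as in 12.4% of all tested genes, and in 7 it lay at or above that median, as in 51.4%. The ratio of 0.6 was chosen after the values were seen. Among these was Ctss, the protease cathepsin S, at 355.6, 399.2 and 445.3 CPM in DMSO against 347.3, 139.9 and 388.4 CPM in NECA. Ctss was named after its values were seen. Like Csf1r, it was lowest in NECA replicate 2, but it was highest in DMSO replicate 3.

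Ligands of the receptors did not pass the test. Csf1 was at 16.7 ± 3.11 CPM in DMSO and 15.2 ± 2.17 in NECA (SD, n = 3), Il34 at 4.85 ± 0.555 and 4.29 ± 1.37, and Cx3cl1, the membrane-bound ligand of CX3CR1, at 183.1 ± 28.7 and 190.2 ± 48.1. Their log2 fold changes were -0.13 (SE 0.20), -0.18 (SE 0.30) and 0.05 (SE 0.23). Without NECA replicate 2 they were -0.17, 0.05 and 0.25. Of 12 genes of CSF1R signalling 6 were higher and 6 lower, with a median of 0.01. The largest difference in that list by p was in the phosphatase Inpp5d (-0.35, SE 0.18), and the feedback inhibitor Socs1 differed by 0.41 (SE 0.39), or -0.16 without NECA replicate 2.

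Around C1q, 12 genes of the classical complement pathway were tested, with 9 lower and 3 higher and 0 past the test. Cd55, which encodes a membrane inhibitor of complement, was at 15.9, 19.7 and 21.5 CPM in DMSO and 27.9, 24.2 and 30.7 CPM in NECA. All NECA libraries lay above all DMSO libraries, with a log2 fold change of 0.54 (SE 0.18). The complement regulator Cd46 differed by -0.82 (SE 0.28). Calr, which encodes calreticulin, differed by 0.60 (SE 0.31) and by 0.31 without NECA replicate 2. Of 24 partners and kinases of the ITAM adaptors 15 were tested, with 10 lower and 5 higher and 0 past the test. Without NECA replicate 2, 16 of 18 tested were lower, and the kinase Syk turned from 0.42 to -0.39. The smallest p values were those of the Fc receptor Fcgr4 (-0.69, SE 0.39), the exchange factor Vav1 (-0.51, SE 0.28) and the kinase Btk (-0.80, SE 0.45; -1.42 without NECA replicate 2). Of 16 cytokines and other activation genes 10 were tested, with 8 lower and 2 higher. Ccl2, a monocyte chemokine, had 18 to 21 counts per DMSO library and 5 to 11 per NECA library (-1.41, SE 0.39). Nos2, which encodes the inducible nitric oxide synthase, had 246 counts in NECA replicate 2 and 9 to 37 in the other libraries, and its log2 fold change turned from 1.60 to -0.67 without that library. Ptgs2, which encodes cyclooxygenase 2, differed by -0.52 (SE 0.31).

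Markers shared by all leukocytes mostly had fold changes below 0 as well. Ptprc, which encodes CD45, was at 33.8, 24.0 and 27.1 CPM in DMSO and 14.5, 17.7 and 16.0 CPM in NECA, without overlap (log2 fold change -0.81, SE 0.18). Cd53 (-0.96, SE 0.22) and Laptm5 (-0.57, SE 0.15) had the other 2 smallest p values, and 9 of 10 genes of the list lay below 0, with 0 past the test. Since the fold change of Ptprc lay below those of all 10 markers, the log2 ratios of the markers to the Ptprc counts of the same library had to be higher in NECA on average, and only their size is described. The log2 ratios differed by 0.10 (Cx3cr1) to 0.72 (Tyrobp), and each of the 10 overlapped between the groups. Adjusted over the 10 ratios, the exact permutation p was 0.5 to 0.7, in a test that cannot go below 0.10. Without NECA replicate 3 the differences of Cd68 and Adgre1 were -0.03 and -0.003. C1qc per count of Ptprc was 1.87, 1.61 and 2.34 in DMSO and 2.82, 2.32 and 3.25 in NECA, with only NECA replicate 2 and DMSO replicate 3 out of order. Cx3cr1 per count of Ptprc was 0.698, 0.601 and 0.733 against 0.750, 0.624 and 0.806, the most even of the 10 over the 6 libraries. The direction depended on the leukocyte gene taken as reference. Of the 10 markers, 0 lay below 0 relative to Ptprc, Cd53, Cd52 or Cytip, 3 relative to Laptm5, 5 relative to Rac2 or Arhgdib, 9 relative to Coro1a or Itgb2 and 10 relative to Lcp1, a comparison added after seeing the data.

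**Figure D5:**
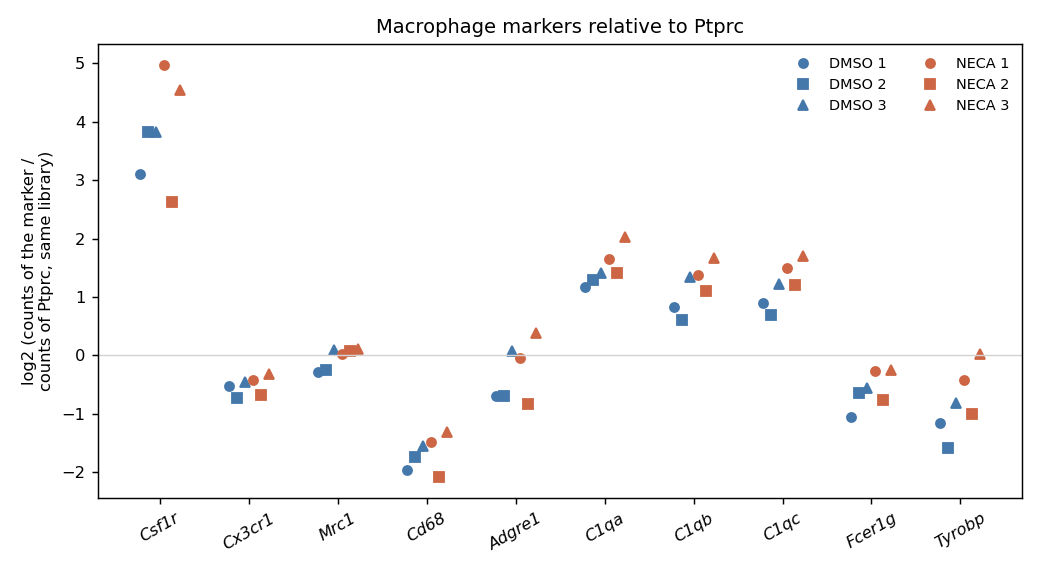
Log2 ratio of each marker's counts to the counts of Ptprc in the same library (y axis) for the 10 markers (x axis), with DMSO in blue, NECA in orange and circle, square and triangle for replicates 1, 2 and 3. The groups overlap in all 10 markers, and Csf1r has the widest range, from 6.17 counts per Ptprc count in NECA replicate 2 to 31.4 in NECA replicate 1.

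Other cell types that can hold these transcripts were checked by their own markers. Of 12 monocyte genes 10 were tested and 9 were lower, among them Fn1 (-0.35, SE 0.25) and Itgal (-0.32, SE 0.27). Ly6c2, of inflammatory monocytes, had 2 to 20 counts per library. Mast cell and basophil markers, relevant to Fcer1g, summed to 35.2 to 46.4 CPM in DMSO and 29.1 to 33.7 CPM in NECA, and 5 of 7 tested were lower. Most of that sum was Kit, also made by pacemaker cells of the gut muscle, and the high-affinity IgE receptor chain Fcer1a had 0 to 2 counts. Neutrophil markers summed to 8.70 to 13.9 CPM in DMSO and 8.66 to 24.2 CPM in NECA. Of 5 tested, 3 were higher and 2 lower, and Mpo and Elane had 0 to 2 counts. The high end was NECA replicate 2, where Ltf alone was at 20.7 CPM, with 415 counts against 30 to 85 in the other libraries. Ltf differed by 1.63 (SE 0.70), and the 2 lower genes, Ngp and Csf3r, by -1.76 (SE 0.71) and -1.14 (SE 0.38). Natural killer and innate lymphoid markers, relevant to Tyrobp, summed to 131.3 to 138.3 CPM in DMSO and 52.1 to 132.6 CPM in NECA, with 3 of 6 tested lower. Ncr1, which defines natural killer cells, had 2 to 10 counts per library. Eosinophil markers, relevant to Adgre1, summed to 0.402 to 3.50 CPM over the 6 libraries, and Epx had 0 or 1 count. Dendritic cell markers summed to 11.9 to 16.0 CPM in DMSO and 10.99 to 12.5 CPM in NECA, with 5 of 7 tested lower. B cell markers summed to 23.3 to 90.4 CPM in DMSO and 10.5 to 22.3 CPM in NECA, with 9 of 9 tested lower. T cell markers summed to 62.1 to 112.7 CPM and 15.7 to 70.2 CPM, with 8 of 8 tested lower. Most of that sum was Trac in every library but NECA replicate 2. Trac was at 64.1, 92.2 and 45.3 CPM in DMSO and 59.1, 1.74 and 37.4 CPM in NECA, so the low end of the sum rests on 1 gene in 1 library. Endothelial and lymphatic markers, relevant to Mrc1, overlapped, at 299.9 to 475.2 CPM in DMSO and 293.2 to 461.3 CPM in NECA. Epithelial markers were at 6236 to 8340 CPM in DMSO and 7829 to 10397 CPM in NECA, all 9 above 0 in log2 fold change, or 7 of 9 without NECA replicate 2. The smooth muscle and mesenchymal markers were at 5969 to 7505 CPM and 5242 to 6048 CPM. Without NECA replicate 2 the number lower was 6 of 8 for mast cell and basophil markers, 3 of 6 for neutrophil markers, 4 of 7 for dendritic cell markers and 4 of 10 for endothelial markers. The part of these lists in the marker values was not tested. In all of them 0 genes passed the edgeR test.

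Which library was left out changed the counts over the markers. Without DMSO replicate 2, 8 of 10 markers had groups that did not overlap (11.3% of all genes, lower in NECA) and 7 were lower with an unadjusted p under 0.05 (2.04% of all genes). DMSO replicate 2 was also the library with the highest mitochondrial share, whose part in this was not tested. Without NECA replicate 3 these were 6 (12.1%) and 6 (2.66%). Without NECA replicate 2 they were 4 (12.1%, or 23.4% in either direction) and 2 (3.16%, or 5.49% in either direction), 0 markers were higher at that p (2.33% of all genes), and 8 of 10 fold changes lay below 0 (52.6% of all genes). DESeq2 without that library called 32 genes, or 0.198%, and gave 2 markers and 5.46% of genes an unadjusted p under 0.05. When DMSO replicate 1, then DMSO replicate 3, then NECA replicate 1 was left out, 1 marker was lower with an unadjusted p under 0.05 (2.04%, 4.25% and 2.87% of all genes) and 4 did not overlap (10.7%, 15% and 13.2%). In each of these fits 0 markers passed after adjustment.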

How the data were processed

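Counts and FPKM per gene came from 6 libraries, 3 with DMSO and 3 with NECA, grouped by their titles. The authors deposited whole-number counts per gene, not normalized, per the file headers. They also deposited FPKM values, which equalled the counts times a gene factor and a library factor, to within a relative deviation of 1e-08. The submitters' processing notes name HISAT, StringTie, edgeR and the builds mm10 and GRCm38, and no source used here gives the strand setting or the rule for multimapping reads. Per the labels' protocols, SMARTer cDNA was amplified by PCR, so counts are not independent molecules.

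Counts were filtered (filterByExpr, minimum count 10 and total 15), normalised by TMM and fitted in edgeR 4.0.16 in R 4.3.3 (glmQLFit, glmQLFTest, two-sided, no covariate), with Benjamini-Hochberg adjustment over 15847 genes and a threshold of 0.05. Each standard error is the log2 fold change divided by the root of F. The scripts were tested on simulated counts. Of 96 genes changed 2-fold in that simulation 35.4% passed the threshold, and of 93 changed 4-fold 92.5% did. The fold changes of all 10 markers were smaller than 2-fold, so a marker that did not pass may still differ. DESeq2 1.42.0 was an alternative. Coordinates are from GENCODE M21 (GRCm38), where 99.77% of identifiers were found.

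The markers, 20 further lists and tests were chosen with earlier results of these data known. Named genes were all markers, up to 3 per list with the smallest p, and the 10 genes most alike. Alternatives were DESeq2 size factors, other filters, a replicate block, DESeq2, sex or bowel position as covariate, and each library left out. DESeq2 without NECA replicate 2 and other leukocyte genes as reference were added after seeing the data. Some genes of the lists are not reported here.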

Additional observations from a re-analysis of the deposited data

How the results depend on the processing

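Of the fold changes of the 10 markers, 8 kept their sign in all 14 alternatives and 0 markers passed in any. Csf1r and Tyrobp changed sign. Csf1r was at 0.35 with the position covariate, 0.31 in DESeq2 without NECA replicate 2, and -0.48 to 0.30 with 1 library left out. Tyrobp was at 0.087 in DESeq2 without NECA replicate 2 and -0.39 to 0.079 with 1 library left out. The number of markers without overlap ran from 4 to 8 with 1 library left out. The median fold change of the markers ran from -0.57 to -0.30. Genes called over the whole table numbered 2 without a filter, 11 with DESeq2 and 32 with DESeq2 without NECA replicate 2. Of the gene lists, jejunal genes had 2 and 1 calls in those DESeq2 fits and B cell markers had 3 in the latter. In place of Ptprc (0 of 10 markers below 0), Laptm5 gave 3, Rac2 and Arhgdib 5, Coro1a and Itgb2 9 and Lcp1 10. The cause of these changes was not tested, except that each reference's own fold change sets the last.

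Same-numbered libraries did not deviate together: the correlations of their deviations from the group means were 0.01, -0.19 and -0.02 for replicates 1, 2 and 3. The numbers were therefore not taken as pairs. Not every library correlated best with its own number. With a replicate block 0 genes and 0 markers were called, 5 markers had an unadjusted p under 0.05 and the median of the markers was -0.44.

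Depth limits Cd68 most among the markers, at 80 to 155 counts per library. The markers' counts cover counting error and PCR copies alike.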

Other observations

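The genes below were picked from the list of 35 other macrophage genes, except Lyve1, which is on the endothelial and lymphatic list. In that macrophage list 28 of 32 tested genes were lower in NECA, as were 51% of all genes, and 4 were higher. The genes picked do not show that balance. Clec10a, a lectin receptor, differed by -0.52 (SE 0.35), Cd209f by -0.29 (SE 0.52) and the chemokine gene Pf4 by -0.05 (SE 0.26). Lyve1, a hyaluronan receptor also made by lymphatic endothelium, was at 30.1, 15.8 and 37.8 CPM in DMSO and 59.5, 28.2 and 50.8 CPM in NECA, where its log2 fold change was 0.72 (SE 0.37), or 0.98 without NECA replicate 2. Cd163, the haemoglobin scavenger receptor, ranged over 19 to 46 counts with DMSO and 35 to 86 with NECA (0.63, SE 0.42). Stab1 differed by 0.17 (SE 0.22). None passed edgeR's quasi-likelihood test after adjustment, and their groups overlapped. Vsig4 had 0 counts in all 6 libraries, a count that allows up to 3 in each, and Folr2 had 2 to 10. Timd4, which marks long-lived gut macrophages, ranged over 41 to 145 counts with DMSO and 59 to 107 with NECA (-0.48, SE 0.43), with DMSO replicate 2 lowest, as in C1qb and C1qc. These genes were named after their values were seen.

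Ace, listed here among monocyte genes, was at 1706, 1591 and 2563 CPM in DMSO and 2273, 253.2 and 2190 CPM in NECA. The summed level of that list was 2370 to 4116 CPM in DMSO and 1241 to 3546 CPM in NECA. It is also an enzyme of the epithelial brush border.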
